A study of Mus musculus with 2 samples.

Results

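The genes described here are the constant region genes of the antibody chains and the gene of the J chain: Ighm, Ighd, Ighg1, Ighg2b, Ighg2c, Ighg3, Igha, Igkc, Iglc2 and Jchain. These 10 genes were chosen by symbol from the 32285 genes counted in both libraries. The cells came from the palatal gingiva of female C57Bl6/J mice (8 to 12 weeks old), taken on day 4 after 3 µl of a 1 µg/ml solution of a ligand had been held on the gingiva for 1 h. The ligand was CpG ODN, a synthetic DNA that is recognised by TLR9, or P. gingivalis LPS, a ligand of TLR2/4. The gingiva was digested with collagenase and trypsin, and for each ligand a pool with equal cell numbers of 4 mice gave 1 scRNA-seq library, so no mouse can be followed and no test between the ligands is possible. An untreated library was not analysed here. Each interval below is a 95% interval for counting error only, and each count is of unique molecular identifiers (UMIs), which mark single captured RNA molecules and were read from their 3′ ends.

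An antibody is built from heavy and light chains. The constant region gene that the heavy chain uses sets its class: Ighm and Ighd are used first and together, by alternative splicing of the same transcript, and after activation a B cell can switch to Ighg3, Ighg1, Ighg2b, Ighg2c, Ighe or Igha by deleting the DNA in between. Igkc is the kappa light chain constant region and Iglc2 is a lambda one, and Jchain encodes the small protein that joins IgM or IgA into polymers that epithelia can export.

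In the GRCm38 annotation (GENCODE M21), matched by gene identifier because the build of the alignment was not given in the sources used here, the 7 heavy chain genes lie on the minus strand of chromosome 12. They run from Ighm (chr12:113418558-113422730) and Ighd (chr12:113406604-113416324) through Ighg3, Ighg1, Ighg2b (chr12:113302965-113307933) and Ighg2c (chr12:113285325-113288932) to Igha (chr12:113254830-113260236). Igkc is on chromosome 6, Iglc2 on chromosome 16 and Jchain on chromosome 5.

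The end of the coding sequence of the secreted heavy chain is shown because it is where the classes that bind the J chain differ from IgG. Each line gives the last 60 coding bases of the GENCODE transcript up to and including the stop codon, in the direction of transcription, with the second codon before the stop in capitals. The codon was TGC, for cysteine, in Ighm-201 (chr12:113420867-113420926) and Igha-201 (chr12:113258768-113258827). It was GGT, for glycine, in Ighg2b-201 (chr12:113306389-113306448) and Ighg2c-202 (chr12:113287389-113287448).
Ighm: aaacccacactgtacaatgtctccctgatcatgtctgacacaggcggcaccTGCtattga
Igha: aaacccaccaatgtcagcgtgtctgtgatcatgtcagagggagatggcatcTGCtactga
Ighg2b: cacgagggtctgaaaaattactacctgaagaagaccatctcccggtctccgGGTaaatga
Ighg2c: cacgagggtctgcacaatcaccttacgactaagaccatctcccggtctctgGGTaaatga

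After a minimum of 200 detected genes, 5736 CpG ODN and 1390 LPS barcodes remained, with medians of 9724 and 20952 UMIs. They were clustered without any immunoglobulin gene or Jchain, so the members took no part in naming the cells. The B-lineage-like cells, named from their markers, were 1075 (18.7%, 17.7 to 19.8) and 91 (6.55%, 5.30 to 7.98). They fell into 4 clusters. A mature B cluster, in which 9 of 10 mature B markers had a UMI in at least 20% of cells, held 747 and 76 cells. Clusters 15 and 18, in which 9 and 10 of 10 germinal centre markers did so, held 224 and 3 cells and are called germinal-centre-like. Cluster 17 was shallow, with 104 and 12 cells. Its LPS cells had 16 UMIs of B-lineage markers against 115 of myeloid markers, so these 12 go against the class they were placed in. Its 104 CpG ODN cells had 516 UMIs of B-lineage markers beside 477 of erythroid and 244 of myeloid markers. Of these 104 cells 43 had a Cd79a UMI, so their class is uncertain too. In the whole cluster 0 of 10 mature B markers and 3 of 10 germinal centre markers had a UMI in at least 20% of cells. Shares without cluster 17 are given with the isotypes.

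Summed over the members, nearly all UMIs were in the B-lineage-like cells. These held 95.9% (95.6 to 96.1) of the 35584 member UMIs after CpG ODN and 98.4% (98.0 to 98.8) of the 3504 after LPS. Igha was an exception, with 76.4% (63.0 to 86.8) of its 55 CpG ODN UMIs and 0 of its 2 LPS UMIs in these cells. Member UMIs made up 0.983% and 1.15% of all UMIs of the B-lineage-like cells. By UMIs per 1000000 UMIs of the cells (CPM) in the CpG ODN B-lineage-like cells, the order was Igkc (6756), Ighg2b (978, 945 to 1011), Ighm (913, 881 to 945), Iglc2 (482), Jchain (411), Ighd (255), Ighg2c (17.6, 13.4 to 22.6), Igha (12.1, 8.72 to 16.4) and Ighg3 (5.19). The intervals of Ighg2c and Igha overlapped, and without the 3 cells richest in Ighg2b the order of Ighg2b (675) and Ighm (917) turned. After LPS the order was Igkc (7920), Ighm (1764), Iglc2 (905), Ighd (516), Ighg2b (203, 155 to 261), Jchain (153, 112 to 204) and Ighg3 (16.6), with overlapping intervals for Ighg2b and Jchain. Ighg1 had 0 UMIs in both libraries, which allows up to 0.864 CPM after CpG ODN and 9.98 CPM after LPS. Ighg2c and Igha had 0 UMIs in the 91 LPS cells.

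Between the libraries, Ighg2b and Jchain were higher after CpG ODN and Ighm, Ighd and Iglc2 were lower when all B-lineage-like cells were summed. Ighg2b was at 978 CPM after CpG ODN and 203 CPM after LPS, a ratio of 4.82 (3.74 to 6.31). Jchain was at 411 and 153 CPM, a ratio of 2.69 (2.003 to 3.69). In the LPS library 3 germinal-centre-like cells held 57 of the 61 Ighg2b UMIs and 46 of the 46 Jchain UMIs. Both ratios thus rest on these 3 cells, and the intervals do not cover how many such cells were caught. The ratios were 0.517 (0.472 to 0.568) for Ighm, 0.494 (0.416 to 0.590) for Ighd, 0.532 (0.468 to 0.607) for Iglc2 and 0.853 (0.818 to 0.890) for Igkc. Of the 4336 genes with at least 100 UMIs in these cells, 9.78% were at least 2-fold higher after CpG ODN and 2.19% at least 2-fold lower, whereas of the 6 members among them 2 were higher (Ighg2b, Jchain) and 1 was lower (Ighd). The median log2 ratio of the 6 was -0.57, beside 0.14 over all these genes. Ighd and Jchain lay close to the 2-fold line, and the ratio of Jchain was 1.99 when the 3 cells richest in Ighg2b were left out. With the antibody-rich LPS barcode that fell under 200 detected genes it was 1.63, and as a mean over cells 5.40. Without called doublets, or without cluster 17, Ighd no longer passed 2-fold, whereas with at least 800 genes Ighd (0.299), Ighm (0.355) and Iglc2 (0.422) all did.

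Within the mature B cluster the ratios of Ighm, Ighd and Iglc2 lay closer to 1 than in all B-lineage-like cells, and that of Igkc lay further from it. Ighm was at 1954 CPM (1882 to 2029) after CpG ODN and 2169 CPM (1988 to 2362) after LPS, a ratio of 0.901 (0.821 to 0.991). Ighd was at 613 and 626 CPM, a ratio of 0.980 (0.824 to 1.17). For Ighd the interval included 1, and for Ighm it came close to 1. Igkc was lower after CpG ODN, at 6299 against 8206 CPM (ratio 0.768, 0.731 to 0.806), and so was Iglc2, at 839 against 1080 CPM (0.776, 0.679 to 0.890). None of the 4 members with at least 100 UMIs there reached 2-fold, where 1.19% of 1938 genes were higher and 0.206% lower. The mix of clusters moved with the summed levels: the mature cluster was 747 of 1075 B-lineage-like cells after CpG ODN and 76 of 91 after LPS. The LPS cells of the mature cluster were also deeper, with a median of 3094 UMIs against 1745, and the part of depth in these ratios was not tested.

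**Figure D1:**
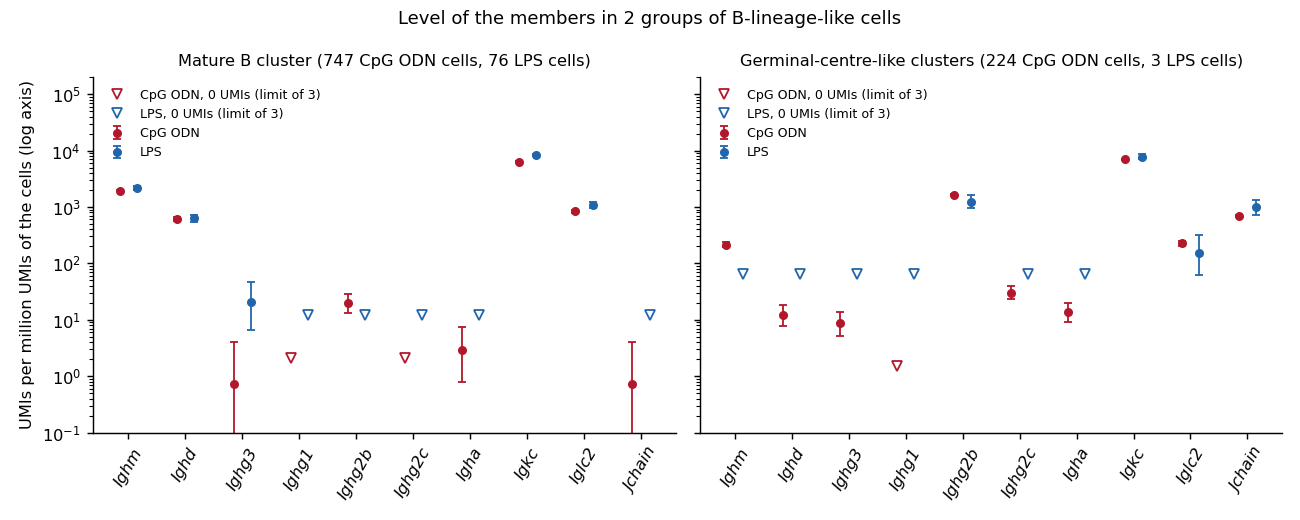
CPM (log axis) of the 10 members in the mature B cluster and the germinal-centre-like clusters, for the CpG ODN library (red) and the LPS library (blue), with 95% Poisson intervals. Open triangles stand at the level that 3 counts would give where a gene had 0 UMIs. In the left panel Igkc is highest in both libraries, followed by Ighm, Iglc2 and Ighd, and Ighg2b and Jchain appear in the right panel, which rests on 3 cells for LPS.

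Ighm and Ighd, the heavy chains of the naive B cell, were found together in the mature cluster. After CpG ODN, Ighm ranged from 0 to 27 UMIs per cell with a median of 3, and Ighd from 0 to 8 with a median of 1. After LPS, Ighm ranged from 0 to 17 with a median of 6, and Ighd from 0 to 7 with a median of 2. Both genes had a UMI in 466 of 747 cells (62.4%) and 61 of 76 cells (80.3%). These shares follow depth: with each cell thinned to 500 UMIs, which left out 0 cells, the share with an Ighm UMI was 61.2% after CpG ODN and 62.6% after LPS (94.2% and 96.1% unthinned), and with an Ighd UMI 26.9% and 28.6% (65.5% and 80.3% unthinned). Ighg2b had 28 UMIs in 9 of the 747 CpG ODN cells and 0 in the 76 LPS cells.

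In the germinal-centre-like clusters of the CpG ODN library Ighg2b was the main heavy chain gene. Ighg2b, the constant region of an IgG subclass, ranged from 0 to 715 UMIs per cell with a median of 7, and 197 of 224 cells had a UMI. Its level was 1612 CPM (1556 to 1669) against 20.0 CPM in the mature cluster of the same library, 80.5-fold (55.6 to 121) higher. Ighm went the other way, at 214 CPM against 1954 CPM in the mature cluster, 9.11-fold (8.22 to 10.1) lower. Ighd was at 12.4 against 613 CPM, 49.6-fold (33.1 to 77.8) lower. In the LPS library 3 cells fell in these clusters, and each carried Ighg2b (14, 14 and 29 UMIs), Jchain (15, 15 and 16 UMIs) and no Ighm or Ighd. In these 3 cells Ighg2b was at 1242 CPM (941 to 1609) and Jchain at 1002 CPM (734 to 1337). Igkc was at 7050 CPM in the germinal-centre-like and 6299 CPM in the mature cells after CpG ODN, a ratio of 1.12 (1.09 to 1.15) that turned to 0.944 without the 3 cells richest in Ighg2b. Iglc2 was at 226 and 839 CPM, 3.71-fold (3.32 to 4.14) lower in the germinal-centre-like cells.

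Much of the Ighg2b signal came from few cells. In the CpG ODN library the cell with the most Ighg2b held 715 UMIs of it, 21.1% of all Ighg2b UMIs of B-lineage-like cells, and the top 3 cells held 31.7%. The same 3 cells held 26.6% of the Jchain and 11.9% of the Igkc UMIs. The first of these cells, in cluster 18, had 715 Ighg2b, 1664 Igkc and 249 Jchain UMIs, and immunoglobulin genes and Jchain made up 25.2% of its 10645 UMIs. The next, also in cluster 18, had 195 Ighg2b, 699 Igkc and 80 Jchain UMIs, and the third, in cluster 17, had 167, 416 and 51, or 40.0% of its 1627 UMIs. By comparison, the median B-lineage-like cell of this library carried 0.946% of its UMIs on these genes. A simulated-doublet score called the first and the third of these cells doublets. Prdm1, a regulator of the plasma cell fate chosen here after its values were seen, had 2, 4 and 0 UMIs in the 3 cells. Other markers of antibody-secreting cells, chosen in the same way, were mixed. Mzb1 had 50, 41 and 10 UMIs and Xbp1 14, 23 and 0. Irf4 had 1, 1 and 0, Sdc1 1, 0 and 0, Derl3 1, 1 and 1, and Tnfrsf17 0 in each. Rgs13, a germinal centre marker, had 3, 15 and 0. Without these 3 cells Ighg2b stayed 58.2-fold higher in the germinal-centre-like clusters than in the mature cluster.

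**Figure D2:**
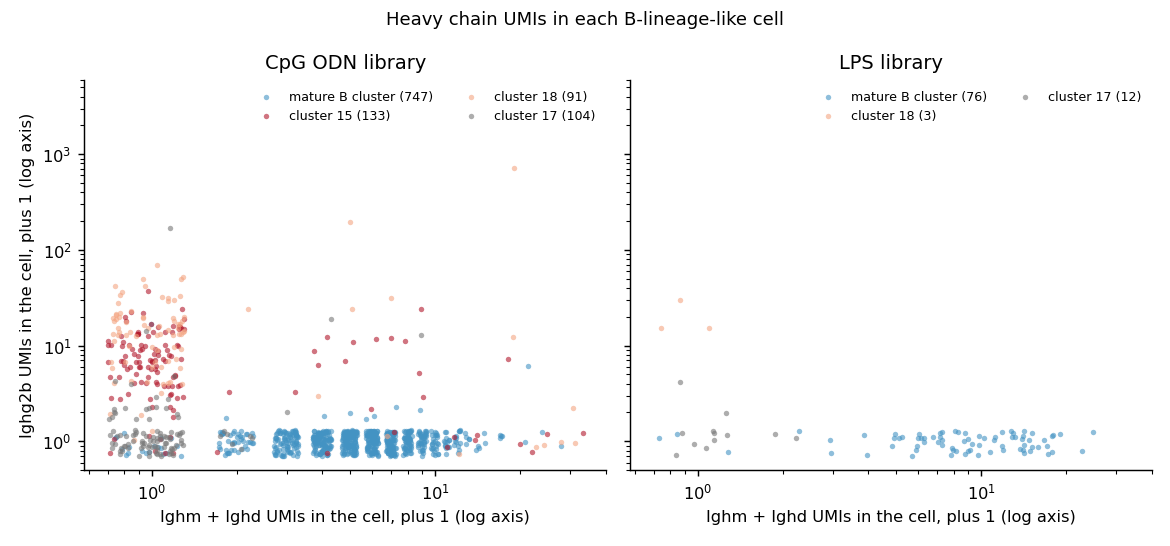
Each point is a B-lineage-like cell of the CpG ODN library (left) or the LPS library (right), placed by its Ighm plus Ighd UMIs and its Ighg2b UMIs, both plus 1 with a small random shift on log axes, and coloured by cluster (number of cells in brackets). Nearly all mature cells lie along the bottom with no Ighg2b (9 of 747 after CpG ODN have a UMI of it) and most germinal-centre-like cells lie along the left with no Ighm or Ighd. The highest point has 715 Ighg2b UMIs.

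An isotype was given to each cell by the heavy chain gene with the most UMIs. After CpG ODN 911 of 1075 B-lineage-like cells could be called, 91 had no heavy chain UMI and 73 were tied, 66 of them between Ighm and Ighd. Of the 911, 68.4% (65.3 to 71.4) were Ighm cells, 7.35% (5.74 to 9.25) Ighd cells and 22.7% (20.0 to 25.6) Ighg2b cells. The remainder were 7 Igha cells, 5 Ighg2c cells and 2 Ighg3 cells. After LPS 77 of 91 could be called, and they were 67 Ighm, 5 Ighd and 5 Ighg2b cells. Switched classes together made up 24.3% (21.5 to 27.2) after CpG ODN and 6.49% (2.14 to 14.5) after LPS. The LPS share rests on 5 cells, 3 of cluster 18 and 2 of cluster 17, and the intervals do not cover how many such cells were caught. Without cluster 17 the shares were 22.1% and 4.11%. With at least 800 detected genes, the limit used in the study, they were 40.9% (200 of 489) and 5.71% (4 of 70).

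Switched cells were found in the germinal-centre-like clusters and hardly at all in the mature cluster. In the mature cluster 1 of 660 called cells (0.152%, 0.00384 to 0.841) was switched after CpG ODN and 0 of 70 after LPS, which allows up to 4.29%. In cluster 15 it was 111 of 126 (88.1%, 81.1 to 93.2) and in cluster 18, whose leading genes include those of dividing cells, 81 of 89 (91.0%, 83.1 to 96.0), all after CpG ODN. All 3 LPS cells of cluster 18 were Ighg2b cells, which allows any share from 29.2% upwards. Cluster 17 held 28 switched cells of 36 called after CpG ODN and 2 of 4 after LPS. Among 207 Ighg2b cells of the CpG ODN library, 172 (83.1%) had no other heavy chain UMI, 17 had an Ighm UMI, 16 an Igha UMI, 9 an Ighd UMI and 9 an Ighg2c UMI. Of the 207, 19 had only 1 heavy chain UMI and could show no other gene.

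**Figure D3:**
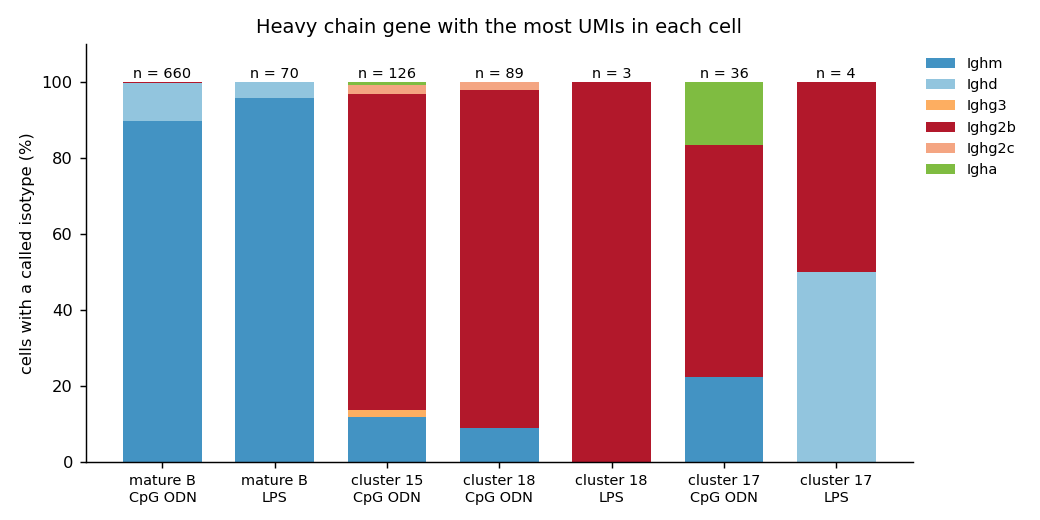
Share of cells (percent of the cells with a called isotype, n above each bar) by the heavy chain gene with the most UMIs, for each B-lineage-like cluster and library. The mature bars are Ighm and Ighd cells apart from 1 CpG ODN cell, and the bars of clusters 15 and 18 are mostly Ighg2b cells.

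The other switched classes were rare. Ighg1 had 0 UMIs in every kept barcode of both libraries. Ighg2c, the IgG2a counterpart of this strain, had 61 UMIs in 18 CpG ODN cells, of which the richest held 19, and 59 of the 61 were in the germinal-centre-like clusters. Ighg3 had 18 UMIs in 6 CpG ODN cells and 5 UMIs in 1 LPS cell. Igha, the heavy chain of secretory IgA, had 42 UMIs in 30 CpG ODN B-lineage-like cells, at most 6 in a cell, and 26 of the 42 lay in Ighg2b cells. Of the 7 cells called Igha, 6 had 1 heavy chain UMI. Ighe, no member, had 1 UMI in all.

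Light chains were mostly kappa. Igkc had a UMI in 1018 of 1075 cells after CpG ODN, with a median of 12 and a highest value of 1664 UMIs per cell, and in 79 of 91 after LPS, with a median of 23 and a highest value of 183. Counting Iglc1, Iglc2 and Iglc3 together as lambda, 79 of 1035 called cells (7.63%, 6.09 to 9.42) were lambda cells after CpG ODN and 4 of 82 (4.88%, 1.34 to 12.0) after LPS, intervals that overlapped. With a strict call, which needs 3 light chain UMIs and 80% of them of 1 kind, the lambda cells were 31 of 703 (4.41%, 3.02 to 6.20) and 3 of 60 (5%, 1.04 to 13.9), so the order of the libraries turned. Within the CpG ODN library the share by most UMIs was 54 of 733 (7.37%, 5.58 to 9.503) in the mature cluster and 5 of 223 (2.24%, 0.732 to 5.15) in the germinal-centre-like clusters. By the strict call it was 24 of 494 (4.86%, 3.14 to 7.14) and 2 of 176 (1.14%, 0.138 to 4.04), with overlapping intervals. A lambda UMI was also seen in 773 of the 956 CpG ODN kappa cells (80.9%), with a median of 2 lambda UMIs beside 13 of Igkc, so the lambda genes are not exclusive to lambda cells in these counts. Iglc2 itself had a UMI in 631 of 1075 and 69 of 91 cells. Its 3′ end shares 43 of 351 windows of 50 bases with Iglc3, and reads from these genes may be divided between them, whereas no such window was shared among the heavy chain genes.

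Jchain was found in germinal-centre-like cells, in those with Ighg2b and in those with Ighm. In the mature cluster it had 1 UMI in 747 CpG ODN cells and 0 in 76 LPS cells, and in the germinal-centre-like clusters it had 1334 UMIs in 203 of 224 CpG ODN cells, with a median of 3 and a highest value of 249. That is 688 CPM (651 to 726) against 0.715 CPM, a ratio of 962 (172 to 38022) that rests on 1 count in the mature cluster. Cluster 17 had 92 Jchain UMIs in 23 of 104 CpG ODN cells, 51 of them in 1 cell, at 700 CPM (564 to 858). Its 12 LPS cells had 0. By isotype, 175 of 207 Ighg2b cells (84.5%, 78.9 to 89.2) and 24 of 623 Ighm cells (3.85%, 2.48 to 5.68) had a Jchain UMI after CpG ODN, and 3 of 5 and 0 of 67 after LPS. Thinned to 500 UMIs, the CpG ODN shares were 23.3% and 1.19%. The Ighm cells with Jchain were almost all germinal-centre-like. Of the 23 Ighm cells in clusters 15 and 18, 22 had a Jchain UMI (95.7%, 78.1 to 99.9), at 608 CPM (495 to 741), beside 167 of 184 Ighg2b cells (90.8%, 85.6 to 94.5) at 718 CPM (678 to 761). After thinning these shares were 29.5% and 24.1%. The intervals of both levels overlapped, between cells of a class whose tail carries the cysteine codon shown above and cells of a class whose tail does not. The 5 Ighg2c cells of these clusters, whose tail does not carry it either, were lower, with 12 Jchain UMIs at 171 CPM (88.2 to 298). The 2 Ighg3 cells, whose tail was not shown, had 11 Jchain UMIs at 1328.5 CPM (663 to 2377). Without the 3 richest cells Jchain in all Ighg2b cells was at 528 CPM in place of 740.

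**Figure D4:**
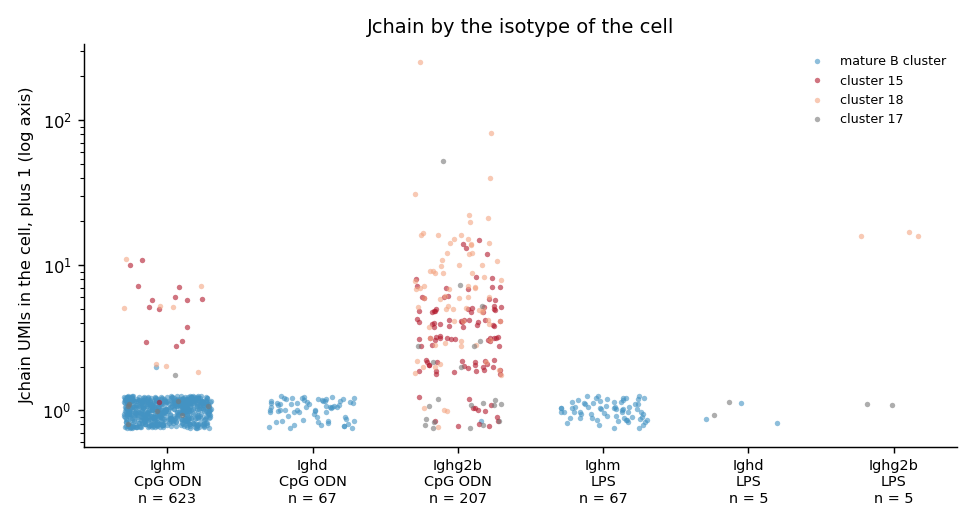
Jchain UMIs per cell, plus 1 with a small random shift on a log axis, by the isotype of the cell and the library, coloured by cluster. Jchain is at 0 in nearly all mature Ighm and Ighd cells, above 0 in 175 of 207 Ighg2b cells of the CpG ODN library, and above 0 in 22 of the 23 germinal-centre-like Ighm cells.

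Variable genes, which are joined to the constant regions and differ between clones, were seen in a minority of cells. Of the 348 variable genes in the files, an Ighv gene had a UMI in 75 of 623 Ighm cells (12.0%) and 22 of 207 Ighg2b cells (10.6%) after CpG ODN, and an Igkv gene in 92 (14.8%) and 68 (32.9%). The Ighg2b cells were deeper, with medians of 5934 UMIs and 38 Igkc UMIs against 1775 and 11 in the Ighm cells. The part of depth in these shares was not tested. Counting each cell once by its leading gene, Ighv5-9-1 led in 4 of the 22 Ighg2b cells (18.2%, 5.19 to 40.3) and Ighv1-26 in 6 of the 75 Ighm cells (8.00%, 2.99 to 16.6). The variable genes with the most UMIs in Ighg2b cells were Igkv1-135 (23 UMIs in 9 cells), Igkv1-117 (10 in 4) and Igkv2-109 (9 in 2), of 182 in all. In Ighm cells they were Igkv1-117 (16 in 15 cells), Iglv1 (15 in 14) and Iglv3 (13 in 12), of 223 in all. In the 67 Ighm cells after LPS they were Igkv1-117 (4 UMIs), Iglv3 (3) and Igkv10-96 (2). No Ighv gene led in more than 18.2% of the cells that had one, in any of these isotypes, and at this depth clones cannot be traced.

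The genes that work with the members were read in the CpG ODN library, germinal-centre-like against mature cells, and counted as higher or lower where the interval of the ratio left out 1. Of 8540 genes with at least 20 UMIs in B-lineage-like cells, 34.4% were higher and 17.8% lower. Of the 14 receptor partner genes 3 were higher and 6 lower. Cd79a, which carries the signal of the surface antibody, was at 2854 CPM in mature and 1265 CPM in germinal-centre-like cells (ratio 0.443, 0.421 to 0.466), its partner Cd79b at 1225 and 1202 CPM (0.981, 0.921 to 1.04), Ms4a1 (CD20) at 799 and 1038 CPM (1.30, 1.21 to 1.40) and Fcmr, the receptor for IgM, at 718 and 132 CPM (0.184, 0.160 to 0.212).

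Of the 14 secretory and folding genes with at least 20 UMIs, 10 were higher and 3 lower. Mzb1, a chaperone of IgM assembly, was at 243 CPM in mature and 691 CPM in germinal-centre-like cells (2.84, 2.52 to 3.21). Hspa5 (BiP), which holds unassembled heavy chains, was at 400 and 312 CPM (0.779, 0.693 to 0.875), Hsp90b1 at 290 and 215 CPM (0.744, 0.648 to 0.855) and Ssr4 at 215 and 194 CPM (0.901, 0.772 to 1.05). Of the 10 class switch genes 8 were higher and none lower. Rif1, Apex1 and Msh6, which act in DNA repair, had ratios of 3.32 (2.39 to 4.69), 2.73 (1.94 to 3.92) and 1.98 (1.34 to 2.99). The deeper germinal-centre-like cells also held more of the 14 epithelial markers, 1764 CPM against 718 CPM, whose part in these ratios was not tested.

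Over 43 profiles of a cluster in a library with at least 20 cells, the genes outside the immunoglobulin loci whose log2 level was most like that of each member were found among 11362 genes. Among the 3 nearest to Ighg2b were Mef2b (Pearson r 0.994) and Eaf2 (0.978), and among those to Jchain were Nuggc (0.981) and Mef2b (0.974). For Ighm they were Prkcb (0.971), AB124611 (0.953) and Ptpn6 (0.949), and for Ighd Bank1 (0.960), B3gnt5 (0.959) and Gm31243 (0.958). Igkc was nearest to Cd79a (0.978), Pax5 (0.976) and Ms4a1 (0.973). Igha, with few UMIs, reached 0.759 with Bcl2a1d and 0.740 with Mthfd1l. The profiles share 2 libraries and are no independent samples, so these values only describe likeness.

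Outside the B lineage the members were sparse, with 1475 UMIs in 4661 cells after CpG ODN (21.6 CPM) and 55 UMIs in 1299 cells after LPS (1.48 CPM). Without the outside cells that had a Cd79a UMI the levels were 6.55 and 1.51 CPM. Epithelial-like cells, which do not make antibody, give the background of free RNA and of cells caught together. Igkc had a UMI in 167 of 3924 of them after CpG ODN (4.26%, 3.65 to 4.94, median 12666 UMIs per cell) and in 13 of 1032 after LPS (1.26%, 0.672 to 2.14, median 25714 UMIs). Ighm had a UMI in 62 (1.58%) and 5 (0.484%). Thinned to 500 UMIs per cell, the Igkc shares were 0.446% and 0.0272% and the Ighm shares 0.139% and 0.0103%.

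Ighm was seen in T or NK-like, myeloid-like and, after CpG ODN, erythroid-like cells. After CpG ODN it had a UMI in 33 of 107 T or NK-like cells (30.8%, 22.3 to 40.5) and 14 of 38 myeloid-like cells (36.8%, 21.8 to 54.0), whose medians of 2510 and 4668 UMIs were below that of the epithelial-like cells. After LPS the numbers were 9 of 26 (34.6%, 17.2 to 55.7) and 6 of 16 (37.5%, 15.2 to 64.6). The levels were 144 CPM (104 to 195) and 146 CPM (98.8 to 209) after CpG ODN and 114 and 143 CPM after LPS, with overlapping intervals, all below the 1954 CPM of mature B cells. Thinned to 500 UMIs, the shares were 7.17% and 6.93% after CpG ODN and 5.09% and 6.20% after LPS, above the thinned epithelial-like shares. Erythroid-like cells had Ighm in 6 of 35 cells after CpG ODN (17.1%, 6.56 to 33.6, thinned 6.86%), at 61.6 CPM (36.5 to 97.3), and in 0 of 19 after LPS. The 35 CpG ODN erythroid-like cells also held 59 Igkc, 7 Ighd and 40 Cd79a UMIs. Of these 35 cells 9 had a Cd79a UMI, and each of the 6 with Ighm also had Igkc. The highest Ighm count in a T or NK-like or myeloid-like cell was 7.

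Igkc, which exceeds Ighm in mature B cells, was below it in the T or NK-like and myeloid-like cells. Ighm had 30 UMIs in the CpG ODN and 13 in the LPS myeloid-like cells, where Igkc had 0 in both. The T or NK-like cells had 42 Ighm and 13 Igkc UMIs, the latter in 4 cells, after CpG ODN and 16 and 0 after LPS. Ighm was thus 76.4% (63.0 to 86.8) to 100% of the Ighm and Igkc UMIs there, against 23.7% (22.9 to 24.5) and 20.9% (19.3 to 22.5) in the mature B cluster and 16.5% in CpG ODN epithelial-like cells. The ratio of these genes thus differed between cell classes of 1 library. Ighd had 1 UMI in all these T or NK-like and myeloid-like cells. Of the 33 Ighm-positive T or NK-like cells after CpG ODN, 27 had Cd3d, 20 had Cd3e and 0 had Cd79a, and of the 14 myeloid-like cells 13 had Lyz2, 14 had Tyrobp and 1 had Cd79a. Which part of the Ighm locus these UMIs came from was not tested.

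**Figure D5:**
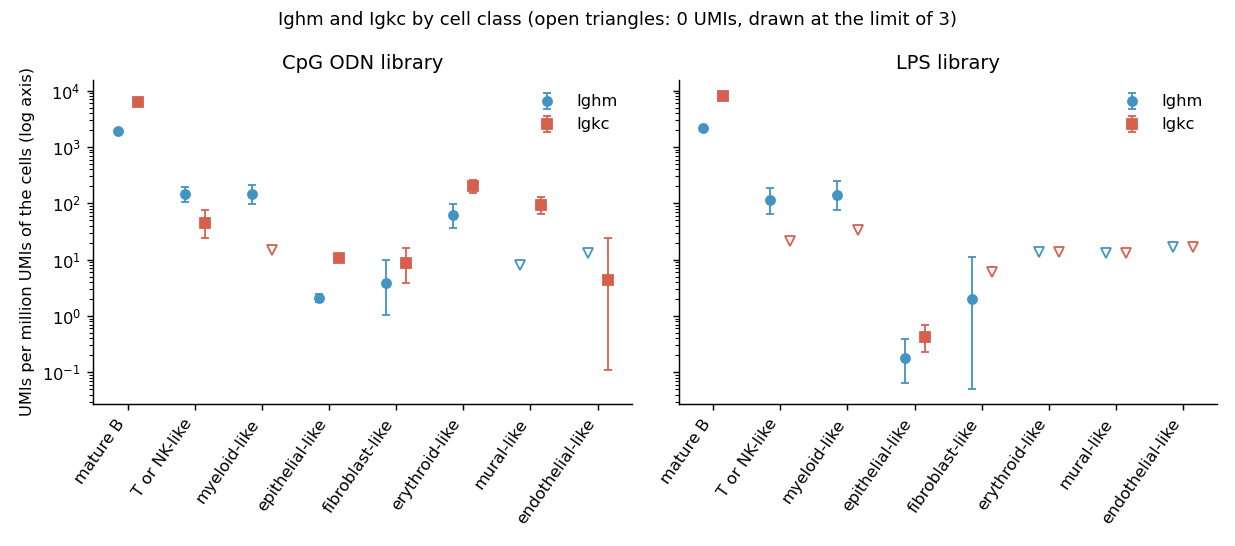
Ighm (circles) and Igkc (squares) as CPM (log axis) with 95% Poisson intervals in the mature B cluster and the other cell classes, CpG ODN library left and LPS library right. Open triangles stand at the level of 3 counts where a gene had 0 UMIs. Igkc lies above Ighm in mature B cells and in CpG ODN epithelial-like cells, and Ighm lies above Igkc in T or NK-like and myeloid-like cells of both libraries.

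Of the receptors that carry or read antibodies, the 4 with the most UMIs differed in the cell classes where they were high. Pigr, which takes polymeric IgA and IgM across epithelia, was at 1244 CPM in 12 gland or simple epithelial-like cells after CpG ODN and 1043 CPM in 24 after LPS, and every member had 0 UMIs in these cells. Fcer1g, the signalling chain of Fc receptors, was at 1313 and 1641 CPM in myeloid-like cells. Fcgrt, which recycles IgG, was at 304 CPM (271 to 339) and 281 CPM (236 to 331) in fibroblast-like cells. In myeloid-like cells Fcgrt was at 268 CPM (202 to 349) and 308 CPM (205 to 446), so the intervals of these classes overlapped in each library. Fcer2a (CD23), the low-affinity IgE receptor of B cells, was at 141 and 266 CPM in B-lineage-like cells.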

How the data were processed

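The authors aligned and counted the reads with Cell Ranger (4.0.0 in the file headers) and deposited raw UMI counts per gene and barcode, with no normalization, and their methods name Seurat. The build was not given in the sources used here. The 10 members and all gene lists were chosen with earlier results of these data known. Samples were grouped by the ligand in the labels, with 1 library of 4 pooled mice per ligand and 72173148 (CpG ODN) and 38656738 (LPS) UMIs in 6219 and 2016 barcodes, of which 1 barcode sequence occurred in both.

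Barcodes with at least 200 detected genes were kept, since the limit of 800 in the methods of the study removes shallow B cells. It is tried as an alternative. Leaving out 394 immunoglobulin genes and Jchain, 2000 variable genes, 30 principal components and 15 neighbours were clustered by the Leiden algorithm at resolution 1 (scanpy 1.11.5, leidenalg 0.10.2) into 28 clusters. A marker counted where at least 20% of a cluster's cells had a UMI and its level was at least 2-fold the mean of 11 coarse clusters. A cluster needed 3 markers and stayed unnamed where another class led its top genes or it was shallow without its own markers there. Rebuilt names need not match the cells of the study. Doublets were kept. Scanpy's Scrublet called 38 of 5736 cells (0.662%) and 4 of 1390 (0.288%), 5 and 1 of them B-lineage-like, and values without them are an alternative.

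UMIs were summed over cells and divided by all UMIs of the cells (CPM, per 1000000 UMIs), with exact Poisson intervals, exact conditional binomial intervals for ratios and exact Clopper-Pearson intervals for shares (scipy 1.17.1), all at 95%. The limit for a gene without UMIs was set at 3 counts, and no division by gene length was made because UMIs count molecules. Shares were also thinned to 500 UMIs per cell. Likeness was the Pearson r of log2(CPM + 10) among genes with at least 200 UMIs. In each list up to 4 genes with the most UMIs, and at least 20, were named, and for each isotype and library the 3 leading variable genes, where cells allowed. A few genes that this rule names are not reported here. Strict calls needed 3 UMIs and 80% of the heavy, or light, chain UMIs, with Ighm and Ighd summed. On simulated counts of 4313 genes for CpG ODN against LPS in B-lineage-like cells, with 200 changed 4-fold, 100% of the higher and 100% of the lower genes passed 2-fold and 2.32% of unchanged genes did. The simulated counts had counting error only. These rates therefore do not cover spread between cells or mice, or a different mix of clusters. Sequences and coordinates came from GENCODE M21 (GRCm38).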

Additional observations from a re-analysis of the deposited data

Results flagged for a closer look

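Member UMIs also lay in barcodes that the comparisons left out. The 626 LPS barcodes under 200 detected genes held 448 UMIs of the members, and 445 of them (99.3%) were in 1 barcode with 164 genes and 673 UMIs, which carried 349 Igkc, 63 Ighm, 30 Jchain and 3 Iglc2 UMIs and 0 of Ighg2b and Cd79a. Immunoglobulin genes and Jchain made up 66.7% of its UMIs. No kept LPS cell of the mature cluster had more than 4.51% of its UMIs on these genes, and none of the 67 kept Ighm cells had a Jchain UMI. The 483 CpG ODN barcodes under the limit held 26 member UMIs, at most 9 in a barcode.

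An unnamed cluster, number 26, held 28 shallow CpG ODN cells (0.488%, 0.325 to 0.705, of the library, median 743 UMIs) and 0 LPS cells. It had 136 member UMIs, among them 89 of Igkc, 40 of Ighg2b in 16 cells and 6 of Jchain, and 0 of Ighm and Ighd.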

How the results depend on the processing

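No paired analysis was possible because there is a single library for CpG ODN and for LPS. Of 165 values recomputed under alternatives, 121 stayed within the counting interval of the reported value, or within 1.5 times a count. A turn of direction was looked for only in the ratios of Ighg2b, Jchain and Ighd over all B-lineage-like cells, and 0 were found. With the strict call the lambda shares of the libraries changed order, as given above. Resolutions 0.5 and 2.0 gave the same B-lineage-like cells. The alternatives with unnamed cluster 26, without cluster 17, without the 3 Ighg2b-rich cells, with all deposited barcodes or the antibody-rich LPS barcode, without outside Cd79a cells, within the mature cluster and for Ighm in T or NK-like and myeloid-like cells were chosen after seeing the data.

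The number of members past 2-fold, 3 as reported, was 5 with at least 800 genes and 5 with cells chosen by their own B-lineage UMIs, where Ighm and Iglc2 joined Ighd, and 1 without the 3 Ighg2b-rich cells. It was 2 without called doublets, without cluster 17, as a mean over cells and without the top cell of each gene. With the antibody-rich LPS barcode under 200 genes it was 3, with Ighm (0.464) in place of Jchain. Over all alternatives Ighg2b ranged from 3.33 to 7.01, Jchain from 1.63 to 5.40, Ighm from 0.355 to 0.796, Ighd from 0.299 to 0.732, Iglc2 from 0.421 to 0.714 and Igkc from 0.671 to 0.913. In the mature cluster Igkc ranged from 0.702 to 0.778.

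With at least 800 genes the switched share after CpG ODN rose to 40.9%, the lambda share fell to 5.78%, the share of member UMIs held by B-lineage-like cells was 95.2%, the level outside them 19.0 CPM and Jchain in Ighm cells 133 CPM. With strict calls the switched share was 21.2%, the lambda share 4.41% and Jchain in Ighg2b cells 809 CPM. Jchain there was 528 CPM without the 3 Ighg2b-rich cells. The share held was 97.3% (CpG ODN) and 97.0% (LPS) with cells chosen one by one, 96.2% with cluster 26 after CpG ODN, and 87.3% after LPS over all deposited barcodes. Without outside cells that have a B-lineage UMI the level outside was 5.74 CPM after CpG ODN, and 6.55 CPM without those that have a Cd79a UMI. The 800 gene limit keeps 521 of 1075 and 73 of 91 B-lineage-like cells. With 77 called LPS cells, an isotype with 0 cells may still make up 3.90%.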
